A study of Mus musculus with 2 samples.

Results

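The miRNA genes Mir23a, Mir27a and Mir24-2 lie side by side on mouse chromosome 8, and Mir23b, Mir27b and Mir24-1 form a duplicate of that group on chromosome 13. The first is called the a cluster here and the second the b cluster. The members were taken by symbol from GENCODE M21 for mm10, matched by gene identifier, and 5 of the 1973 miRNA genes in the count tables were found: 3 in the a cluster and 2 in the b cluster. Mir24-1 has no row of its own in these tables.

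Reads shorter than 30 nt were counted in whole stomach of B6NCrl mouse embryos at 15.5 days, male and female together. The stomachs of 78 embryos were pooled for replicate 1, and those of 62 for replicate 2, so a value averages many embryos and the spread is that between 2 pools. Both pools belong to a single untreated group. The levels below therefore compare genes within a library, and any test compares the libraries. Sense-strand gene counts summed to 5988677 and 6675498, and levels are given as CPM, the count scaled to a common total of these sums. A count of 0 allows up to 0.501 and 0.449 CPM, from counting error only. Marker genes of the stomach's cell types were listed with earlier results of these data known, so their levels describe the pools and do not test the tissue. The smooth muscle genes Mir143 and Mir145a summed to 178423 and 183398 CPM. The 7 epithelial genes summed to 60703 and 54994 CPM, and the 5 gland and endocrine genes to 17830 and 28768 CPM.

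A miRNA is cut from a hairpin transcript, and its bases 2 to 8, the seed, choose the mRNAs it represses. miR-23, miR-27 and miR-24 have different seeds but are made together, since each cluster can be transcribed as a single precursor RNA. They are known from vessels, smooth muscle, fat and blood cells, where they act on growth, differentiation and vessel sprouting. Duplicate clusters give a tissue a pair of sources of nearly the same miRNAs.

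The 3p arms are shown because they hold what the paralogs share and where they part. Capitals mark the seed, and the sequences are RefSeq's for GRCm38.p6, 5′ to 3′. Hairpins matched for 6 of the 6 genes, and entries for both arms for 5 of them. miR-23b-3p is named only.

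miR-23a-3p: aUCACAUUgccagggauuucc
miR-27a-3p: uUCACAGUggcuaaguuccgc
miR-27b-3p: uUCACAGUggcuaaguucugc
miR-24-3p, from Mir24-2 and from Mir24-1: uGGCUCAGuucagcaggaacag

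The 3p arms of miR-27a and miR-27b have the same seed and the same first 18 bases, and differ at a single position, C19U, counted from the 5′ end with the base of miR-27a first. A read that ends within those 18 bases matches both genes. The Mir23a and Mir23b hairpins share an exact run of 20 bases, as do Mir27a and Mir27b, and Mir24-2 and Mir24-1 share a run of 28. For miR-24-3p no base tells the clusters apart, because both genes encode the identical 22-base sequence. The seeds of miR-23a-3p and miR-27a-3p differ at 1 of their 7 bases, and that of miR-24-3p differs from each at 7. In the RefSeq table no other mature miRNA has the 3p seed of miR-23a or of miR-27. That table has no entry for miR-23b-3p, so whether the miR-23 paralogs share the seed could not be read from it. The seed of miR-24-3p recurs in miR-5124b, miR-6369, miR-6410 and miR-6413, whose genes had 0 counts in both libraries.

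The 5p arms, shown because they can be assigned to a gene, are less alike.

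miR-27a-5p: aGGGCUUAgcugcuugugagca
miR-27b-5p: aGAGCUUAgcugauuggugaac
miR-24-2-5p: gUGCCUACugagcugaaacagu
miR-24-1-5p: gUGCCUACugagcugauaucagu

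The miR-27 pair of 5p arms differs at 8 of 22 positions, and the seeds differ too. The miR-24 pair shares its seed and its first 16 bases and then diverges. A gene's count holds reads of both arms, which the tables do not separate. Reads that match several places are on a line of their own and in no gene's count. They made up 25.49% and 26.97% of all reads in the tables of replicate 1 and replicate 2. Reads of miR-24-3p match 2 genes, and short reads of miR-23 and miR-27 can, so the counts below are of reads placed uniquely. How many reads of these families were set aside was not tested.

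The clusters differ in layout. The a cluster spans 404 bases of the plus strand: Mir23a at chr8:84208518-84208592, Mir27a at chr8:84208672-84208758 and Mir24-2 at chr8:84208815-84208921 (mm10). Mir23a and Mir27a overlap no other annotated transcript. Mir24-2 overlaps the start of the long non-coding RNA gene Gm26532 on its own strand and Mir3074-2 on the other strand. The nearest coding gene, Zswim4, lies 1757 bases further on, on the minus strand.

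The b cluster spans 792 bases, also on the plus strand, with Mir23b at chr13:63300484-63300557 and Mir27b at chr13:63300712-63300784. It lies within the aminopeptidase gene Aopep (2010111I01Rik in GENCODE M21), on the same strand. Of Aopep's coding transcripts, 4 span Mir23b and Mir27b, with introns there and 0 exons. The same stretch is within an intron of the minus-strand gene Fancc. A further Aopep transcript, annotated as subject to nonsense-mediated decay, has an exon over Mir27b. The hairpin of Mir24-1 (chr13:63301208-63301275) lies inside Mir3074-1 (chr13:63301199-63301283), which is read from the minus strand.

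**Figure D1:**
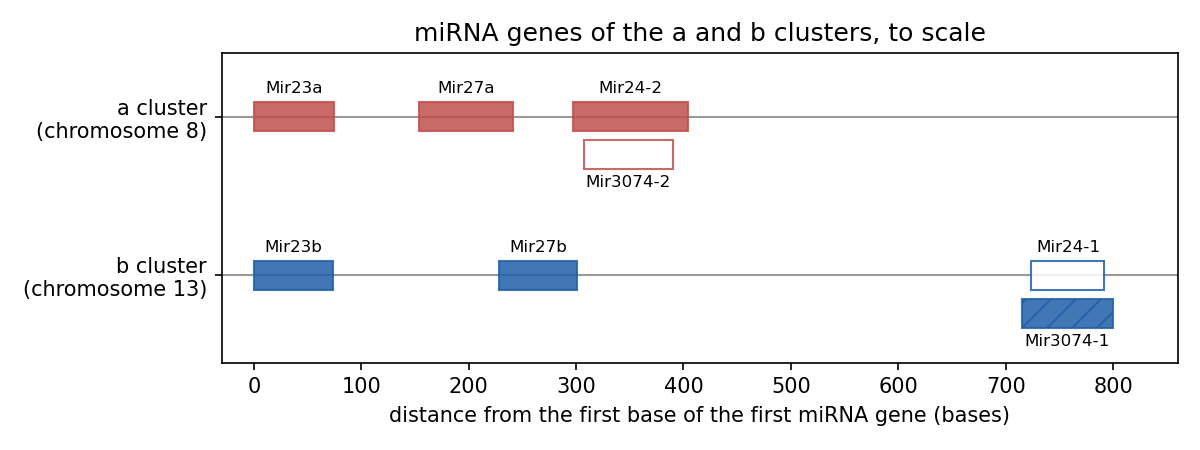
Positions of the miRNA genes in the a cluster (upper line, red) and the b cluster (lower line, blue), in bases from the first base of Mir23a or Mir23b. Filled boxes have a row in the count tables and open boxes have none; boxes under a line are on the minus strand, and the hatched box is Mir3074-1. The b cluster, at 792 bases against 404, is the longer.

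By uniquely placed reads the miR-23 genes were among the highest miRNA genes in these stomach libraries, and the other members were far lower. Whether reads of different sequences were captured alike was not tested. Mir23b, which yields miR-23b, had 121502 counts in replicate 1 and 143543 in replicate 2, or 20289 and 21503 CPM, a mean of 20896 ± 859 CPM (SD, n = 2). It ranked 12 and 10 among all genes. Its paralog Mir23a had 88036 and 91688 counts, or 14700 and 13735 CPM, a mean of 14218 ± 683 CPM (SD, n = 2), and ranked 15 and 18. The lower Mir23b library stood above the higher Mir23a library. Together the miR-23 pair held 3.50% and 3.52% of all sense counts.

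miR-27, known to restrain fat cell formation, came next. Mir27b had 12519 and 10785 counts, or 2090 and 1616 CPM, a mean of 1853 ± 336 CPM (SD, n = 2), at ranks 66 and 74. Mir27a had 2104 and 1509 counts, or 351 and 226 CPM, a mean of 289 ± 88.6 CPM (SD, n = 2), at ranks 140 and 150. The libraries of Mir27a and Mir27b did not overlap. Between the pools, both miR-27 genes were lower in replicate 2.

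Mir24-2, a source of miR-24, known from control of the cell cycle, had 1521 and 1329 counts, or 254 and 199 CPM, a mean of 227 ± 38.8 CPM (SD, n = 2), at ranks 153 and 157. The order of mean levels was Mir23b, Mir23a, Mir27b, Mir27a, Mir24-2. It was the same per 100 bases of gene, where the mean levels were 28238, 18957, 2538, 332 and 212 CPM. The order was the same within each library. Across the libraries, neighbours in it did not overlap, except that the lower Mir27a library (226 CPM) stood below the higher Mir24-2 library (254 CPM). Since reads that match both miR-24 genes are not counted, the value of Mir24-2 does not give the level of miR-24.

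**Figure D2:**
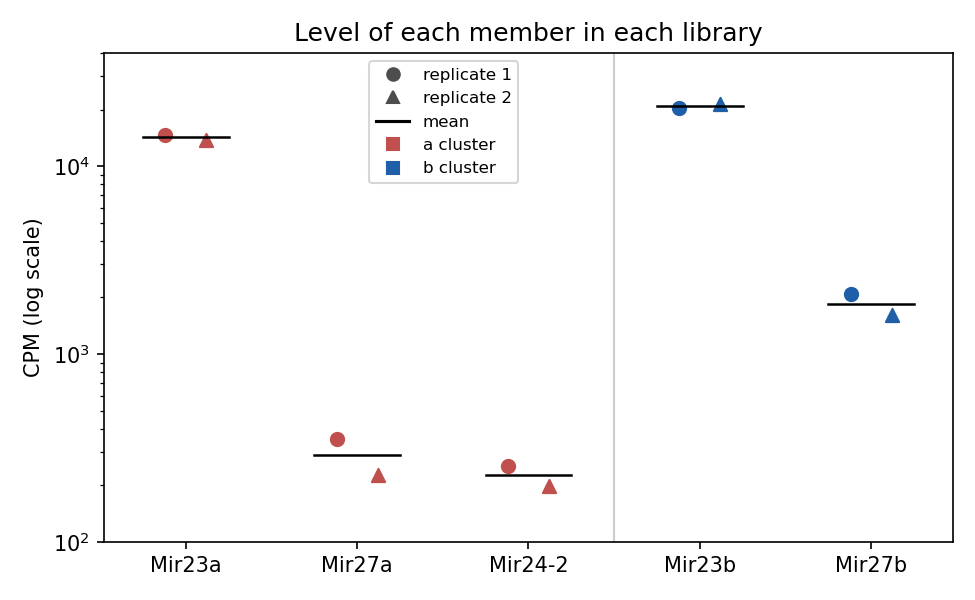
CPM of each member on a log scale, with replicate 1 as circles, replicate 2 as triangles and the mean of the 2 pools as a line; a cluster in red, b cluster in blue. The miR-23 genes lie between 13735 and 21503 CPM, and the a cluster's other genes between 199 and 351 CPM.

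For the members listed in both clusters, the b cluster had the more uniquely placed reads, slightly for miR-23 and strongly for miR-27. miR-24 is left out here because Mir24-1 has no row. The plus-strand counts at its place, given under the flagged results, put the a cluster higher for miR-24. Differences are log2 of a over b with 1 CPM added to each level. For Mir23a over Mir23b the log2 ratio was -0.46 in replicate 1 and -0.65 in replicate 2, a mean of -0.56 ± 0.13 (SD, n = 2). Mir23b was thus 1.38-fold and 1.57-fold the higher. For Mir27a over Mir27b the ratios were -2.57 and -2.83, a mean of -2.70 ± 0.19 (SD, n = 2), or 5.95-fold and 7.15-fold higher counts for Mir27b. Both pools gave the same order in each pair. Divided by gene length, the means were -0.58 ± 0.13 and -2.95 ± 0.19.

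As a share of the paired counts, Mir23a gave 42.0% of miR-23 counts in replicate 1 (95% exact Clopper-Pearson interval 41.8 to 42.2) and 39.0% in replicate 2 (38.8 to 39.2). Mir27a gave 14.4% (13.8 to 15.0) and 12.3% (11.7 to 12.9) of miR-27 counts. The intervals cover counting error only, and the pools lay outside each other's intervals for both pairs. With 2 libraries a two-sided exact permutation test cannot give a p under 0.5, so none was run on the ratios.

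The 2 pairs were not unequal to the same degree. The log2 ratio of a over b was higher for miR-23 than for miR-27 by 2.10 in replicate 1 and 2.19 in replicate 2, a mean of 2.14 ± 0.06 (SD, n = 2; 2.38 ± 0.06 divided by gene length). That gap was many times the spread between the pools. It is the same quantity as the gap between the clusters in their ratio of miR-23 to miR-27. In the a cluster Mir23a exceeded Mir27a by 5.38 and 5.92 on the log2 scale, 5.65 ± 0.38 (SD, n = 2; 5.87 ± 0.38 divided by gene length). In the b cluster Mir23b exceeded Mir27b by 3.28 and 3.73, a mean of 3.51 ± 0.32 (SD, n = 2; 3.49 ± 0.32 divided by gene length).

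Within the a cluster, Mir23a alone held 96.0% and 97.0% of the cluster's counts. Mir27a held 2.30% and 1.60%, and Mir24-2 held 1.66% and 1.41%. Mir27a exceeded Mir24-2 by 0.47 and 0.18 on the log2 scale, a mean of 0.32 ± 0.20 (SD, n = 2; 0.62 ± 0.20 divided by gene length). Within the b cluster, Mir23b held 90.7% and 93.0% of the counts and Mir27b 9.34% and 6.99%. Summed over their listed members the a cluster had 15306 and 14160 CPM and the b cluster 22379 and 23119 CPM. The log2 ratio of the sums was -0.63 ± 0.11 (SD, n = 2; -0.66 ± 0.11 divided by gene length), set nearly wholly by the miR-23 genes. The 5 genes together held 3.77% and 3.73% of sense counts.

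Other duplicated miRNA clusters gave a scale for these ratios. Of 20 pairs of related genes from other clusters, 17 were found by symbol with at least 10 counts for both genes in both libraries. Their log2 ratios had a median size of 2.14. They ran from 0.08 for Mir20a and Mir93 to 7.49 for Mir181b-1 and Mir181d, and 13 of the 17 were over 1. The pair of Mir92a-1 and Mir25 was left out because the symbol Mir92a-1 was not found. That gene has a row as Mir92-1, with 15758 and 16376 counts beside 2643 and 2877 for Mir25. The size for miR-23 was larger than that of 1 of the 17 pairs, and 6 of the 17 exceeded miR-27. The SD between the pools had a median of 0.13 over these pairs, close to the 0.13 and 0.19 of the miR-23 and miR-27 pairs. Some pairs in the list encode an identical mature miRNA and lose the reads they share. Others, such as Mir181b-1 and Mir181d, hold a gene with a further copy outside the pair, here Mir181b-2, and lose reads shared with it. Pairs of both kinds are among those that exceeded miR-27, and Mir181a-1 and Mir181b-1 each enter more than 1 pair. How far the lost reads set these ratios was not tested.

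**Figure D3:**
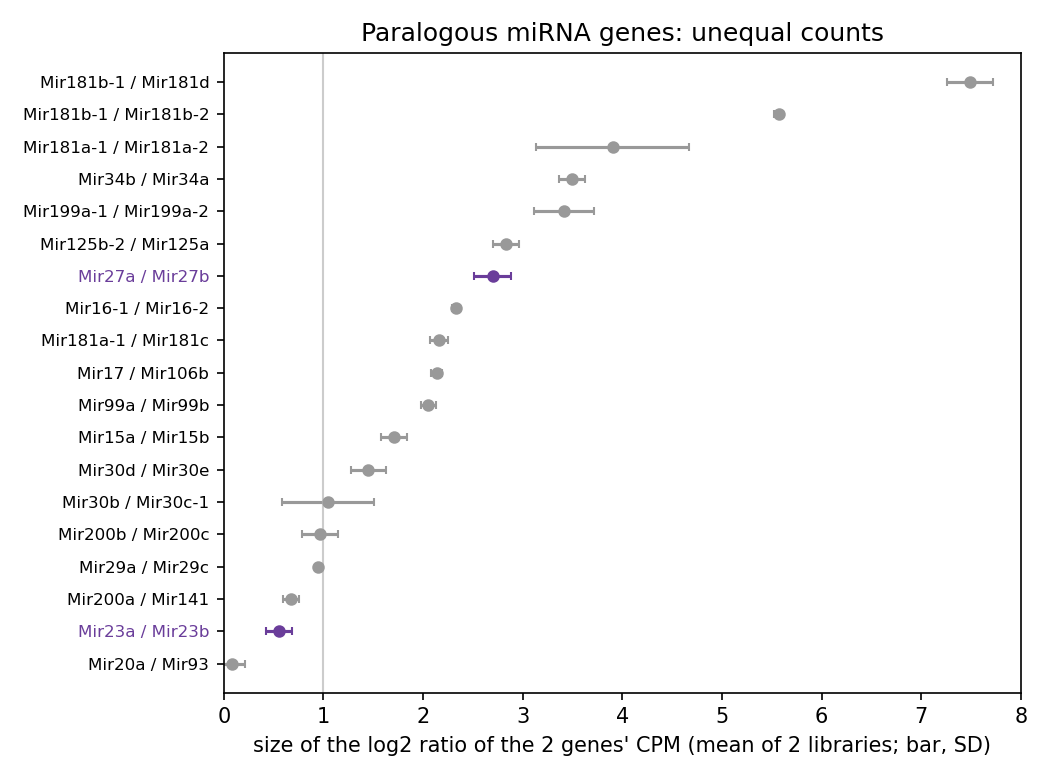
Size of the log2 CPM ratio for pairs of related miRNA genes from different clusters; points are means of 2 libraries and bars the SD. Purple marks the miR-23 pair at 0.56 and the miR-27 pair at 2.70, grey the 17 other pairs, and the vertical line a 2-fold difference.

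Between the pools the miR-27 genes of both clusters and Mir24-2 had lower CPM in replicate 2, Mir23a differed by 0.10 or less on the log2 scale, and Mir23b was higher there by an amount that depended on the scaling. The counts of a gene in the 2 libraries were compared by an exact binomial test (two-sided, conditional on their sum), adjusted by Benjamini-Hochberg over the 466 genes whose summed counts reached 10. Called genes had an adjusted p under 0.05 together with a 2-fold difference. By that rule 0 of the 5 members were called, against 5.79% of all tested genes. With no fold limit all 5 had an adjusted p under 0.05, against 46.4% of all tested genes. The test compares these libraries, not conditions, and at such counts small differences pass it.

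Among the members Mir27a differed most. It had a log2 ratio of replicate 2 over replicate 1 of -0.63 (95% exact interval -0.73 to -0.54, adjusted p = 1.12e-38 by the exact binomial test), and Mir27b one of -0.37 (-0.41 to -0.33, adjusted p = 8.68e-85). Mir24-2 stood at -0.35 (-0.46 to -0.24, adjusted p = 3.79e-10 by the exact binomial test). Of the miR-23 genes, Mir23a stood at -0.10 (-0.11 to -0.08, adjusted p = 5.24e-46 by the exact binomial test) and Mir23b at 0.08 (0.07 to 0.09, adjusted p = 2.28e-49). The median tested gene stood at -0.11. Relative to it Mir23a was at 0.02, Mir23b at 0.20, Mir27a at -0.52, Mir27b at -0.26 and Mir24-2 at -0.24.

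The ratio of miR-23 to miR-27 was therefore higher in replicate 2 in both clusters, by 0.54 in the a cluster and by 0.46 in the b cluster on the log2 scale. The ratios of a over b changed less, by -0.18 for miR-23 and -0.26 for miR-27. With library totals, 91.9% of the 197 tested genes with a mean of at least 100 CPM differed less between the pools than Mir27a. This share was not computed under another scaling. The scaling of a library cancels in a ratio of 2 genes of that library, apart from the 1 CPM added. It does change the ratio of replicate 2 over replicate 1 of a single gene. TMM raises every such ratio by 0.13 and DESeq2 size factors by 0.16. With them Mir23a turned to 0.03 and 0.06, and Mir23b went from 0.08 to 0.21 and 0.24. That is about the size of the values of Mir27b (-0.24 and -0.21) and Mir24-2 (-0.22 and -0.19) under the same scalings, while Mir27a stood at -0.51 and -0.48. The exact test of edgeR, whose dispersion came from these 2 libraries alone, gave adjusted p = 1 for each of the 5 members. That dispersion treats the pools as replicates and so takes in the very difference tested. The test therefore cannot decide whether the members differ.

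For the markers of the stomach's cell types, 0 genes of the 4 lists were called, against 5.79% of all tested genes. Of the 6 vessel genes 4 were found by the listed symbol, with a median log2 ratio of -0.19 beside -0.11 for all tested genes. All 4 were negative with library totals, but 2 of the 4 were positive with TMM and with DESeq2 size factors. They were Mir126a (-0.07), the endothelial miRNA gene, Mir221 (-0.75), Mir222 (-0.28) and Mir296 (-0.11). Their summed level was 29543 CPM in replicate 1 and 28025 CPM in replicate 2. These vessel values leave out Mir92a-1, which has a row under the symbol Mir92-1. It stood at -0.10, with 2631 CPM in replicate 1 and 2453 CPM in replicate 2, and was not called. Of the smooth muscle genes Mir143 stood at 0.05 and Mir145a at -0.51. The 7 epithelial genes had a median of -0.15, with 5 negative and 2 positive. They ran from -0.62 for Mir203, a gene of stratified epithelium, to 0.05 for Mir200c. The 5 gland and endocrine genes had a median of 0.01, with 2 negative and 3 positive, from -0.10 for Mir194-2 to 0.85 for Mir375. With TMM and DESeq2 size factors their median was 0.14 and 0.16, and all 5 were positive. Of these, 1 was called with DESeq2 size factors. Under the same scalings the epithelial median was -0.02 and 0.006. The part of these differences in the miR-27 values was not tested. In whole tissue, fewer cells of a type and less RNA per cell cannot be told apart.

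**Figure D4:**
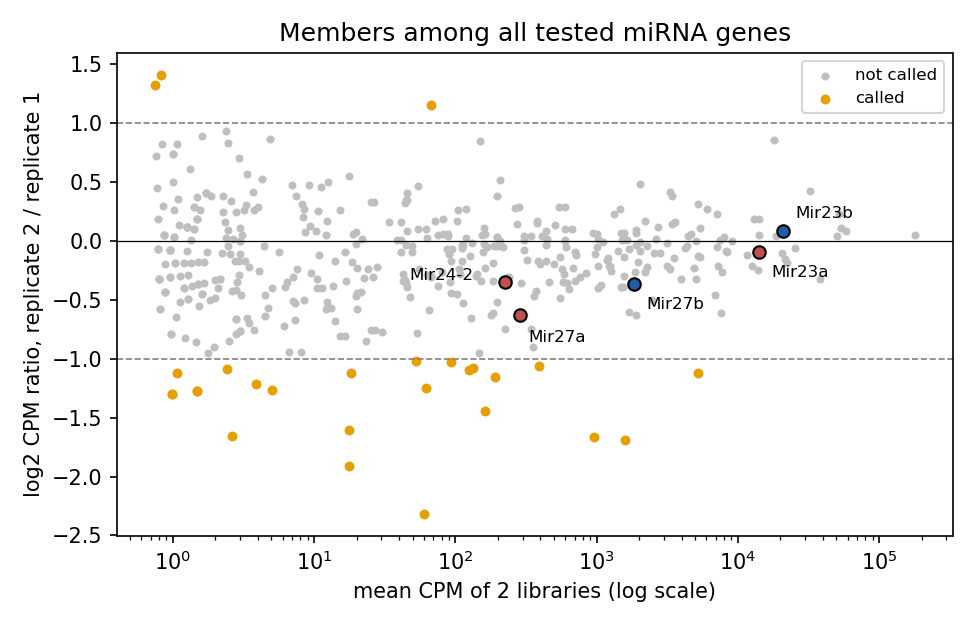
Log2 CPM ratio of replicate 2 over replicate 1 against mean CPM (log scale) for the 466 tested miRNA genes. Orange points are the 27 called genes, dashed lines the 2-fold limits, and large points the members (a cluster red, b cluster blue); all 5 members lie inside the limits, with Mir27a the lowest at -0.63.

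By level in both libraries, the genes most like each member were found as the nearest in log2(CPM + 1) over the 2 libraries, by Euclidean distance. Nearest to Mir23a were the epithelial gene Mir200c (distance 0.10) and Mir30e (0.12), and nearest to Mir23b were Mir322 (0.13) and Mir17 (0.18). Mir27b had Mir708 (0.08) and Mir484 (0.18) beside it, Mir27a had Mir34c (0.20) and Mir329 (0.35), and Mir24-2 had Mir185 (0.11) and Mir667 (0.13). With 2 libraries this is likeness of level only.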

How the data were processed

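The authors deposited 1 table of read counts per library, with whole-number counts per miRNA gene for mm10 and GENCODE M4, per the deposited description files. Which aligner and counter were used is not given in the sources used here. A row's first count equals the sum of its other 2 throughout; the second was read as the sense strand and used, the third as the opposite strand. Lines that name no gene were left out of totals. Symbols and positions are from GENCODE M21, on which 1894 of 1973 identifiers matched.

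Levels are CPM over summed sense counts, ratios are log2 with 1 CPM added, and SDs are over 2 pools. The counts are of reads, which need not be independent molecules, so intervals and limits cover counting error only. The exact binomial test was tested on simulated data that held counting error only, which cannot show how it behaves with further spread between pools. Named were the members, the marker lists, the 2 nearest genes by level, genes of shared seed or place, and the extreme paralog pairs. Members and lists were chosen with earlier results of these data known. TMM (edgeR), DESeq2 size factors, pseudocounts, count minimums, gene length, strand and each replicate left out were the alternatives. Software was edgeR 4.0.16 and DESeq2 1.42.0 in R 4.3.3, and scipy 1.17.1, numpy 2.4.6, matplotlib 3.10.9 and pandas 2.3.3 in Python 3.11.15.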

Additional observations from a re-analysis of the deposited data

Results flagged for a closer look

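Counts stood on the strand of Mir24-1, outside the sense counts the comparisons use. Mir3074-1 is read from the minus strand and encloses the place of Mir24-1, and its opposite-strand counts, which lie on the plus strand like Mir24-1, were 255 in replicate 1 and 331 in replicate 2. Both are above the 3 counts taken as the limit of a count of 0, and they come to 42.6 and 49.6 CPM. Its own sense counts were 444 and 513. At the 5 members the opposite strand had at most 2 counts. Set beside each other, Mir24-2 exceeded the plus-strand counts at Mir24-1 by 2.55 and 1.98 on the log2 scale (2.22 and 1.66 divided by the lengths of Mir24-2 and of Mir3074-1, over which the counts were made), 5.96-fold and 4.02-fold. For miR-24 the a cluster was thus the higher by uniquely placed reads, unlike for miR-23 and miR-27. This comparison was chosen after the counts were seen. Reads of miR-24-3p match both genes, and which arm the plus-strand reads come from was not tested; 4 transcripts of Aopep, none of them annotated as coding, also have exons there.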

How the results depend on the processing

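Every log2 ratio of a over b and within a cluster kept its sign under each alternative run: pseudocounts of 0.5 and 5 CPM, gene length, and each replicate left out, and for a over b also both strands. Dividing by gene length moved Mir27a over Mir27b from -2.70 to -2.95 and Mir27a over Mir24-2 from 0.32 to 0.62, as the lengths themselves fix. With all reads in the table as denominator the mean CPM was lower by construction, at 7437 for Mir23a, 151 for Mir27a, 118 for Mir24-2, 10937 for Mir23b and 968 for Mir27b. Between the pools Mir23a went from -0.10 to 0.031 with TMM and 0.059 with DESeq2 size factors. The 27 called genes became 216 without the fold limit, 13 with a pseudocount of 5 CPM, 4 by the exact test of edgeR and 16 where summed counts had to reach 100; 0 members were called under any alternative except the lack of a fold limit, with 5. Adding the plus-strand counts at Mir24-1 to the b cluster, chosen after seeing the data, left the ratio of the sums within its SD. No paired analysis was possible because both libraries belong to the same group. Depth limits none of the 5 members, whose lowest count was 1329.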
